A study of Mus musculus with 4 samples.

Results

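The SLC25 family was described here through its 44 mouse genes whose symbol starts with Slc25a and which had at least 1 probe set annotated to that symbol alone, of 18193 genes so annotated on the array. Each gene was represented by the probe set with the highest mean log2(signal + 16) over the 4 arrays, so that a bright probe set stood for the gene. Of the 44 genes, 39 passed the filter on low signals and were tested. The other 5, Slc25a23, Slc25a31, Slc25a35, Slc25a41 and Slc25a54, were not tested, because fewer than 2 arrays read them above the 40th percentile of all signals on that array. Members were taken by symbol and not by their values, but the family was chosen with earlier results of these data known.

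Proteins of this family are small carriers of the inner mitochondrial membrane that exchange nucleotides, carboxylates, amino acids, cofactors and metals between the mitochondrial matrix and the cytosol. They are built from repeats of a common module and are encoded in the nucleus, made in the cytosol and inserted by the TIM22 import complex. A few members sit elsewhere, such as Slc25a17 in the peroxisomal membrane and Slc25a46 in the outer mitochondrial membrane. Mature neutrophils are known to rely largely on glycolysis, with few mitochondria.

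The study compared 2 samples of granulocytic myeloid-derived suppressor cells (G-MDSC) with 2 samples of neutrophils on Affymetrix arrays of the mouse transcriptome, all from female C57BL/6 mice of unstated age. G-MDSC are granulocytic cells that accumulate in tumour-bearing hosts and were purified on Ly6G microbeads from spleens of mice that had carried subcutaneous EL4 lymphoma for 3.5 weeks. The neutrophils came from the peritoneal cavity of mice given 2 injections of 1.5 ml of 12% casein 16 h apart and killed 3 h after the second. F4/80 depletion came first, and Ly6G selection followed. In both groups red cells were lysed. Cell kind, tissue, tumour, casein and sorting route changed together between the groups and cannot be told apart. No label states that replicates are different animals. Every p-value here sets a difference against the spread between these arrays, and that spread could be technical. In the main limma fit the spread of a gene also draws on all genes tested.

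The arrays differed at their low end. The median signal was 75.8 to 83.3 in 3 arrays and 177.9 in neutrophils replicate 2, and the 40th percentile was 45.7 to 52.6 against 132.7. All differences below are G-MDSC minus neutrophils on the log2(signal + 16) scale, which understates changes of dim genes. Over all 13139 genes tested the median difference was -0.18, and it was 0.04 after quantile normalization and 0.38 after scaling the arrays to a common median. As a background for the marker lists, 8.3% of all genes tested were higher in G-MDSC and 8.05% lower. Of 14 neutrophil markers tested, 7 were higher in G-MDSC and 0 lower, led by Mpo (5.12) and Camp (5.10). The other higher ones were Elane (4.74), Ltf (4.38), Ngp (2.54), Cd177 (2.04) and Cxcr2 (1.24). Not called were Mmp9 (1.01), Mmp8 (0.77), Csf3r (0.61), Itgam (-0.08), Lcn2 (-0.12), S100a8 (-0.31) and S100a9 (-0.45). The summed signals of this list were 348572 to 397856 in G-MDSC and 234289 to 275953 in neutrophils. Much of that gap lay in called genes such as Ltf, whose G-MDSC signals were 30447 and 29703 and whose neutrophil signals were 2483 and 822. The uncalled markers had differences of both signs, so the gap does not show more neutrophil RNA in G-MDSC. Of 13 macrophage markers 10 were lower and 0 higher (14618 to 14732 in G-MDSC and 40893 to 60107 in neutrophils), led by Msr1 (-5.89) and Marco (-5.36). Of 9 mast cell markers 5 were lower and 0 higher (18839 to 22224 in G-MDSC and 30731 to 41139 in neutrophils). Among the lower ones, Cma1 read 17.7 and 9.44 against 4591 and 1551, and Mcpt4 read 10.4 and 7.22 against 1619 and 827. The uncalled ones were Kit (1.62, limma adjusted p = 0.0531), Gata2 (0.29), Ms4a2 (-0.28) and Hdc (-0.54). Most of the summed signal of this list was Hdc, whose G-MDSC signals were 15256 and 18052 and whose neutrophil signals were 24350 and 24016. Of 11 proliferation markers 6 were higher and 0 lower (8672 to 22253 in G-MDSC and 4374 to 5907 in neutrophils), led by Tk1 (2.96) and Ube2c (2.68). Of 6 B and plasma cell markers 1, Jchain (4.49), was higher, and of 7 T and NK cell markers Nkg7 was higher (1.83) and Cd2 lower (-1.75). The summed signals of the B and plasma cell list were 12114 to 16483 in G-MDSC and 7364 to 9649 in neutrophils. That gap came mainly from Jchain, whose G-MDSC signals were 8912 and 4232 and whose neutrophil signals were 310 and 215. Its uncalled markers were Cd79a (0.40), Ms4a1 (0.096), Mzb1 (-0.41), Pax5 (-0.44) and Cd79b (-0.46). The sums therefore do not show more B cell RNA in G-MDSC. For the T and NK cell list the sums were 809 to 1395 in G-MDSC and 1174 to 1335 in neutrophils. Of 7 erythroid markers 0 were called by limma in either direction, with 0 at an unadjusted p under 0.05 (2205 to 2281 in G-MDSC and 2050 to 2846 in neutrophils), and without neutrophils replicate 2 there were 2 higher. Which cells carried the Slc25a transcripts was not tested, and in these bulk samples fewer cells of a type and less RNA per cell cannot be told apart.

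Among the 39 Slc25a genes tested, 8 were higher and 1 was lower in G-MDSC (limma, two-sided, Benjamini-Hochberg over 13139 genes, threshold 0.05). The genes that rose were Slc25a11, Slc25a12, Slc25a16, Slc25a24, Slc25a28, Slc25a30, Slc25a38 and Slc25a45, by 0.98 to 1.53 on the log2 scale. The gene that fell was Slc25a4, the ADP/ATP carrier ANT1, which fell by 1.96. The 8 higher genes were 20.5% of the members tested, where 8.3% of all genes were higher, and the 1 lower gene was 2.56%, where 8.05% of all genes were lower. The median difference of the members was 0.04, with quartiles of -0.52 and 0.61, against -0.18 with quartiles of -0.80 and 0.50 for all genes. The arrays of the groups did not overlap for 12 members higher in G-MDSC (30.8%, against 27.3% of all genes) and for 11 lower (28.2%, against 32.2%). These shares lay near those of all genes. Proliferation and macrophage markers moved between the same arrays, and their part in these counts was not tested.

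**Figure D1:**
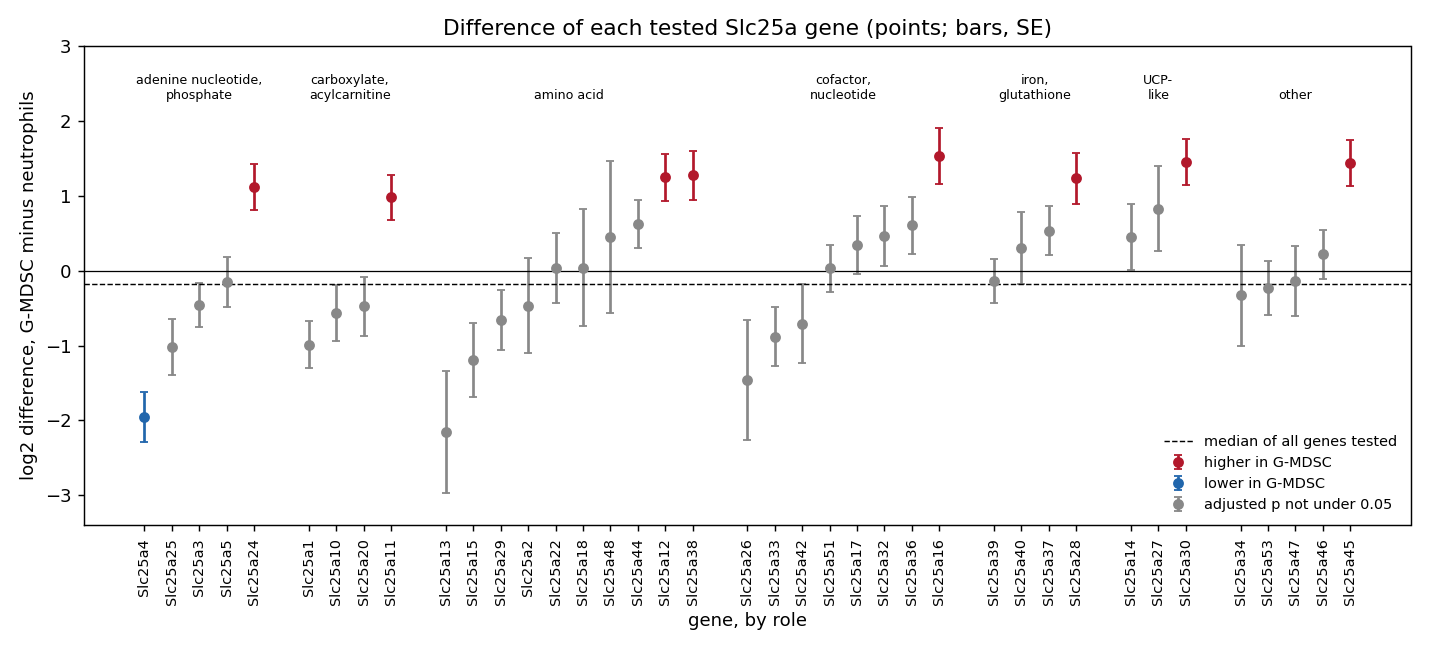
Log2 difference of each of the 39 Slc25a genes tested, G-MDSC minus neutrophils, grouped by role along the horizontal axis. Points are fitted differences and bars are SE, n = 2 arrays per group. Red points are the 8 genes higher in G-MDSC, the blue point is Slc25a4, grey points did not pass the threshold, and the dashed line is the median of all genes tested at -0.18.

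A fit without 1 array takes its within-group spread from the pair of the other group. The G-MDSC arrays correlated at 0.966 and the neutrophil arrays at 0.911 over the genes tested. The differences of the 8 higher genes were 0.99 to 1.55 without neutrophils replicate 1 and 0.91 to 1.82 without neutrophils replicate 2. Without G-MDSC replicate 1 or replicate 2, 0 of the 8 genes passed limma's threshold, at adjusted p from 0.064 to 0.434 and from 0.101 to 0.289, although their differences were 0.87 to 1.77 and 1.09 to 1.38. At an unadjusted p under 0.05 there were 6 higher and 3 lower members without replicate 1, and 7 and 2 without replicate 2, where 17.3% and 17.7% of all genes passed. All genes gave fewer calls there as well, with 3.27% and 3.89% higher and 4.37% and 4.27% lower. Without neutrophils replicate 1, limma added 7 lower members (Slc25a1, Slc25a10, Slc25a13, Slc25a15, Slc25a25, Slc25a29 and Slc25a42) and 2 higher ones (Slc25a36 and Slc25a37), in a fit that called 18.4% of all genes higher and 26.4% lower. Without neutrophils replicate 2 it added 4 lower members, Slc25a1, Slc25a13, Slc25a20 and Slc25a33, with 13% of all genes higher and 11.1% lower. Slc25a4 passed without each of the 4 arrays in turn.

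Other scalings, variance settings and probe-set rules changed the counts. Quantile normalization left 5 higher and 1 lower (6.85% and 6.77% of all genes), and Slc25a11, Slc25a28 and Slc25a38 lost their call. Median scaling left Slc25a16 alone, against 8.19% and 3.45% of all genes, a split of 1076 to 453 in place of 1091 to 1058. The 8 higher genes differed by 1.54 to 2.08 with this scaling, at limma adjusted p from 0.00504 to 0.228, where the median of all genes was 0.38. At an unadjusted p under 0.05 median scaling gave 10 higher members and 1 lower, where 24.5% of all genes passed. As deposited there were 14 members in either direction at that p, where 29.6% of all genes passed. Without the intensity trend limma called 0 members (1.13% and 2.52% of all genes), with 8 higher and 5 lower at an unadjusted p under 0.05 (25.9% of all genes). Without moderation it called 0 of 13139 genes, and 8 higher and 2 lower members had an unadjusted p under 0.05 (18.1% of all genes). Fitting the median of a gene's kept probe sets within each array left 5 higher and 2 lower (6.72% and 7.55%), and every kept probe set on its own left 7 and 1 of the chosen ones (5.76% and 6.13% of all probe sets). Slc25a1 joined the lower genes with signals raised to the 40th percentile (10.1% and 9.57%) and with the filter at the 60th (12.1% and 11.5%).

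Among 5 tested carriers of adenine nucleotides and phosphate, 1 was higher and 1 lower. Slc25a4 exchanges matrix ATP for cytosolic ADP, and its signal was 481 and 425 in the G-MDSC arrays against 1496 and 2165 in the neutrophil arrays. Both G-MDSC arrays lay below both neutrophil arrays. The difference was -1.96 ± 0.33 (SE, 2 arrays per group, adjusted p by limma 0.00259), a 3.88-fold lower value in G-MDSC. Relative to the median gene it was -1.77 as deposited and -2.04 with quantile normalization. Median scaling shifts all genes alike and cannot change this relative value. With it the adjusted p by limma was 0.212. Without the intensity trend that p was 0.0543. The other kept probe sets of Slc25a4 were lower as well, with 406 and 275 in the G-MDSC arrays against 2169 and 2196 in the neutrophil arrays for one and 304 and 318 against 1424 and 1925 for the other. Their differences were -2.65 and -2.36. A dim probe set of the gene that did not pass the filter read 17.0 and 34.2 against 15.9 and 51.7.

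Slc25a5 encodes ANT2, the paralog of Slc25a4 with the same exchange. It was measured at 10312 and 12747 in the G-MDSC arrays against 9919 and 16291 in the neutrophil arrays, and the groups overlapped. Its difference was -0.15 ± 0.34 (SE, 2 arrays per group, adjusted p by limma 0.793). The 8 kept probe sets of Slc25a5 ran from -0.59 to 0.08. Its sign turned with median scaling (0.41) and without neutrophils replicate 2 (0.21). The difference between the paralogs was not itself tested. Several probe sets of Slc25a5 carry the array maker's mark for probes that may match other sequences, and RefSeq lists a processed copy, Slc25a5-ps. Other members have probe sets with this mark too. Among them are the Slc25a4 probe set that read 304 and 318 in the G-MDSC arrays and the one used for Slc25a39. The specificity of these probe sets was not tested here.

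Slc25a24, a calcium-regulated exchanger of ATP-Mg for phosphate, was higher in G-MDSC. Its signal was 8720.2 and 7058 in the G-MDSC arrays against 4092 and 3172 in the neutrophil arrays, with both G-MDSC arrays above both neutrophil arrays, and the difference was 1.12 ± 0.31 (SE, 2 arrays per group, adjusted p by limma 0.0286). A dimmer probe set of the gene gave 337 and 342 against 166 and 267, a difference of 0.65, and in a fit to their median within each array the call was lost (0.88, limma adjusted p = 0.0692). Its paralog Slc25a25 stood at 215 and 258 in the G-MDSC arrays against 404 and 605 in the neutrophil arrays. The arrays separated, with G-MDSC lower, and the difference of -1.02 ± 0.38 (SE, n = 2 per group) missed the threshold (limma adjusted p = 0.0926). The kept probe sets of Slc25a25 disagreed, from -1.02 to 1.04. Slc25a3, which brings phosphate into the matrix, read 8666 and 9095 against 11096 and 13468 and differed by -0.46 ± 0.30 (limma adjusted p = 0.334, n = 2 per group). Without a test, Slc25a23 read 40.3 and 29.4 against 53.4 and 12.2, Slc25a31, the germ-cell ANT4, read 21.0 and 26.3 against 16.6 and 87.6, and Slc25a41 read 1.56 and 2.71 against 3.91 and 53.0. The highest value of Slc25a31 and of Slc25a41 was in neutrophils replicate 2, the array with the raised low end.

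**Figure D2:**
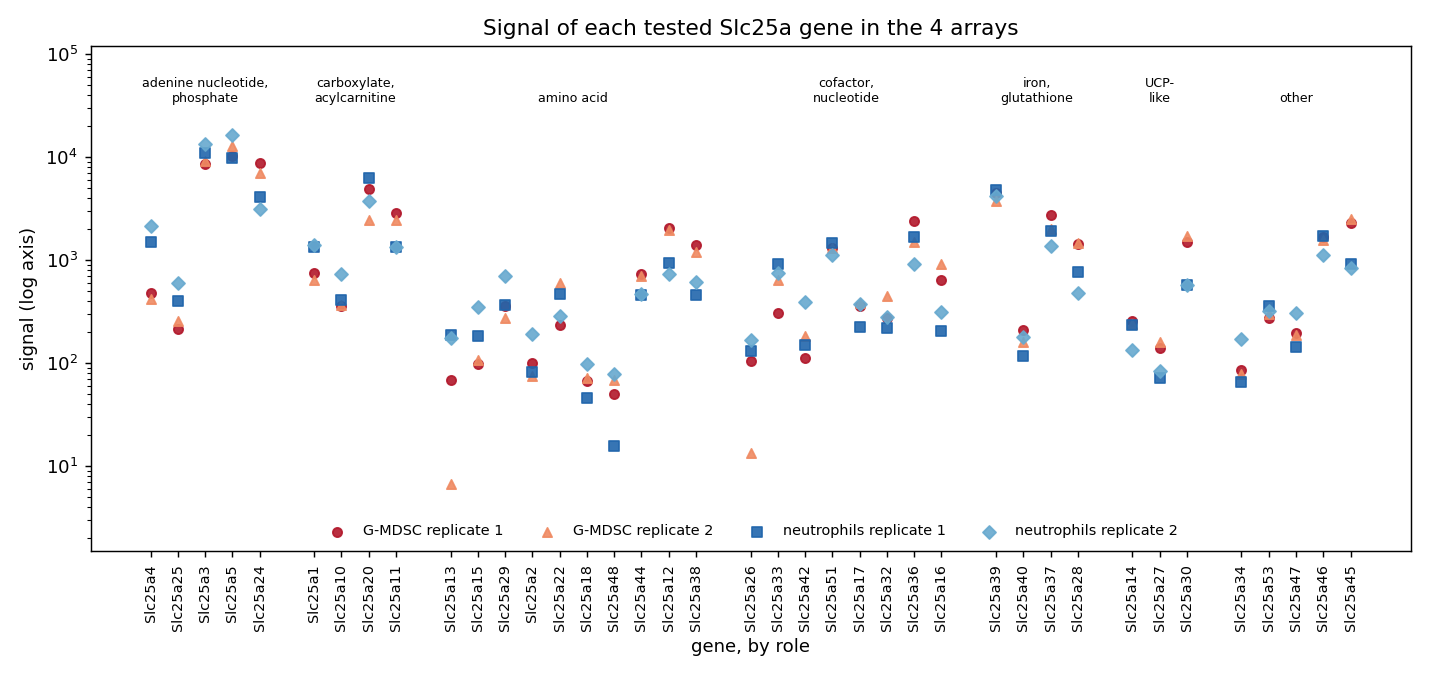
Signal of each of the 39 Slc25a genes tested in the 4 arrays, on a log axis, grouped by role and ordered by difference within a role. Circles and triangles are the 2 G-MDSC arrays, squares and diamonds the 2 neutrophil arrays. For Slc25a4 the neutrophil symbols (1496 and 2165) stand above those of G-MDSC (481 and 425), and for Slc25a30 the order is turned round.

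Promoter sequence was set beside these values for some paralogs and called genes. RefSeq (GRCm38.p6) gave 43 promoters for 34 of the 44 genes, and the 250 bases before each start were searched on both strands. The motifs were CCAAT, the GC box GGGCGG, the E-box CACGTG, the cyclic AMP element TGACGTCA, the ETS core CCGGAAGT and the TATA box TATAAA. Printed for comparison are the paralogs Slc25a4 and Slc25a5, the paralogs Slc25a12 and Slc25a13, and Slc25a28 and Slc25a30, which were higher in G-MDSC. Each runs 5′ to 3′ toward the start, and capitals mark matches to any of these motifs on either strand.
Slc25a4 chr8:46211063-46211312 (- strand): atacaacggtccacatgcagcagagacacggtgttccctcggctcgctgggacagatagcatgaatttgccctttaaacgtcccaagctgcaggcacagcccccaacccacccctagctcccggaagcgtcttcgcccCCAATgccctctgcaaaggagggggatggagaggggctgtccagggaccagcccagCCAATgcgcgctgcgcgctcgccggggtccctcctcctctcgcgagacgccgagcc
Slc25a5 chrX:36795347-36795596 (+ strand): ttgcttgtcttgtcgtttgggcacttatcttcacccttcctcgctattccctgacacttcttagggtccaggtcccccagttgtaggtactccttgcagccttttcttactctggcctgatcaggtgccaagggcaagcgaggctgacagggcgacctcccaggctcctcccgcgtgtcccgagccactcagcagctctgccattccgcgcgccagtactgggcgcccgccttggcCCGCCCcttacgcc
Slc25a12 chr2:71367756-71368005 (- strand): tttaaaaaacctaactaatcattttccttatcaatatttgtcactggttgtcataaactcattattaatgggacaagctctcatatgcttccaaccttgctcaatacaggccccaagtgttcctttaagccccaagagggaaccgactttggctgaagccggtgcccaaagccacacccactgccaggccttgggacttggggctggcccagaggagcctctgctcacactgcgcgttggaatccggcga
Slc25a13 chr6:6217174-6217423 (- strand): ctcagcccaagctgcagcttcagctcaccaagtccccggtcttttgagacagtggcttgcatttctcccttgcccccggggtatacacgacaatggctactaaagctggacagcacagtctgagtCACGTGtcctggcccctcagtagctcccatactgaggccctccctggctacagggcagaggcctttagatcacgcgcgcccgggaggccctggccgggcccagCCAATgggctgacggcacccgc
Slc25a28 chr19:43674882-43675131 (- strand): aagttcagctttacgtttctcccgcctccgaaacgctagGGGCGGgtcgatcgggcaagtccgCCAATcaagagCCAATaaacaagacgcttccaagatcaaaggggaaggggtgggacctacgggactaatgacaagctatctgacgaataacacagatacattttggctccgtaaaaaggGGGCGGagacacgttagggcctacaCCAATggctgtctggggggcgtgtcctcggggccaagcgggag
Slc25a30 chr14:75787038-75787287 (- strand): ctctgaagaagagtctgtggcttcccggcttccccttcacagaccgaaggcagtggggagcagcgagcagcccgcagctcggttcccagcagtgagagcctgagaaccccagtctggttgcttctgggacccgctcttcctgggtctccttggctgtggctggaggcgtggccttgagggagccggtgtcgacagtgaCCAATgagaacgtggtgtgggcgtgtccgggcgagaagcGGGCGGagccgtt

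The promoter of Slc25a4 held 2 CCAAT motifs and no GC box, and that of Slc25a5 held 1 GC box and no CCAAT. Slc25a12 had no match to any motif in this window, while Slc25a13 had an E-box and a CCAAT. Slc25a28 held 3 CCAAT motifs and 2 GC boxes, and Slc25a30 held 1 of each. Over all 43 Slc25a promoters, 46.5% held CCAAT, against 33.8% of 32851 promoters in the table, and 74.4% held a GC box, against 32.7%. The E-box was in 18.6%, against 6.02%, in the promoters of 7 genes, Slc25a1, Slc25a13, Slc25a14, Slc25a15, Slc25a31, Slc25a33 and Slc25a36. The TATA box was in 2.33%, against 12.4%, the cyclic AMP element in 4.65%, against 1.55%, and the ETS core in 2.33%, against 2.88%. Of the 9 called genes, 4 held CCAAT and 5 a GC box, where 17 and 25 of all 34 members did. The E-box, the cyclic AMP element, the ETS core and the TATA box were each in 0 of the 9. The median G+C content was 58% in the Slc25a promoters and 52.4% in all. The GC box is made of G and C alone, the motifs can overlap one another, and the counts describe only letters in this window. Windows of a gene with several starts can also overlap, as for Slc25a14 and Slc25a23, so the shares of promoters can count the same match more than once.

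Carriers of carboxylates and acylcarnitine gave 1 call among 4 genes. Slc25a11, which exchanges oxoglutarate for malate, was higher in G-MDSC, at 2884 and 2460.1 in the G-MDSC arrays against 1354 and 1332 in the neutrophil arrays. Its difference of 0.98 ± 0.30 (SE, n = 2 per group) lay just inside the threshold (limma adjusted p = 0.0464), and the call was lost with quantile normalization (adjusted p = 0.0999) and over all kept probe sets (0.0637). Slc25a1, the citrate carrier that feeds fatty acid synthesis, lay just outside. It was measured at 746 and 641 in the G-MDSC arrays against 1355 and 1420.2 in the neutrophil arrays, so that the arrays separated with G-MDSC lower. Its difference was -0.99 ± 0.31 (SE, 2 arrays per group, adjusted p by limma 0.0521), and it passed in 7 of 17 alternatives, among them the fits without neutrophils replicate 1 and without replicate 2.

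Slc25a10, the dicarboxylate carrier, read 361 and 369 against 410.4 and 733 and differed by -0.57 ± 0.38 (n = 2 per group, limma adjusted p = 0.349), with G-MDSC lower in both arrays and neutrophils replicate 2 well above the other 3. Slc25a20, which brings acylcarnitines into mitochondria for fatty acid oxidation, read 4962 and 2457 against 6268 and 3771. Its groups overlapped, replicate 1 of each group was above replicate 2, and the difference was -0.48 ± 0.39 (SE, limma adjusted p = 0.45). It passed without neutrophils replicate 2 and turned to 0.03 without G-MDSC replicate 2.

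Amino acid carriers gave 2 calls among 10 genes, both higher in G-MDSC. Slc25a12, or aralar, exchanges aspartate for glutamate and works with Slc25a11 in the malate-aspartate shuttle. Its signal was 2042 and 1974 in the G-MDSC arrays against 949 and 740.5 in the neutrophil arrays, and the difference was 1.24 ± 0.31 (SE, 2 arrays per group, adjusted p by limma 0.0191). The call rests on 1 probe set. The other kept ones were dimmer and overlapped between the groups, at 92.0 and 109 against 76.9 and 181 and 209 and 96.4 against 193 and 194, with differences of -0.22 and -0.40, and a fit to the median of the 3 within each array gave -0.32 (limma adjusted p = 0.683). Slc25a38, a carrier that supplies glycine for haem synthesis, was measured at 1412 and 1210 in the G-MDSC arrays against 464 and 611 in the neutrophil arrays. Its groups did not overlap, and it was higher by 1.27 ± 0.33 (SE, 2 arrays per group, adjusted p by limma 0.0217), with the call lost under quantile normalization (1.16, adjusted p = 0.0561).

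Slc25a13, or citrin, is the paralog of Slc25a12. It read 69.2 and 6.70 in the G-MDSC arrays against 186 and 175 in the neutrophil arrays, with G-MDSC replicate 2 far below the 40th percentile of its array. The arrays separated with G-MDSC lower, and the difference of -2.16 ± 0.82 (SE, n = 2 per group) missed the threshold (limma adjusted p = 0.099). Without neutrophils replicate 1 the limma adjusted p was 0.0314, and without neutrophils replicate 2 it was 0.0109. The difference was -3.11 without G-MDSC replicate 1 and -1.21 without G-MDSC replicate 2, and neither passed. Slc25a15, the ornithine carrier of the urea cycle, read 98.6 and 107 against 185 and 349 and differed by -1.19 ± 0.49 (n = 2 per group, limma adjusted p = 0.133). Slc25a29, a carrier of basic amino acids, had 5 kept probe sets with differences from -0.66 to -0.01. The brightest of these read 362 and 276 against 369.5 and 699.

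The paralogous glutamate carriers Slc25a22 and Slc25a18 differed by 0.04 ± 0.47 and 0.04 ± 0.78 (limma adjusted p = 0.966 and 0.978, n = 2 per group). Slc25a22 spread more within groups than between them, at 234 and 606 in the G-MDSC arrays against 467 and 289.6 in the neutrophil arrays. Slc25a18 was dim and overlapped as well, at 67.4 and 72.7 against 45.6 and 97.8. Slc25a44, a carrier of branched-chain amino acids, separated the arrays at 728 and 708 against 456 and 467 but missed the threshold (0.62 ± 0.32, limma adjusted p = 0.23, n = 2 per group). A second bright probe set of Slc25a44 gave 0.98 and another -0.62. Slc25a2, a further ornithine carrier, and Slc25a48, a choline carrier grouped here, were dim, at 101 and 75.6 against 82.0 and 193 and 50.3 and 69.4 against 15.9 and 79.0, and their groups overlapped.

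Of 8 carriers of cofactors and nucleotides, 1 was called. Slc25a16, which has been linked to coenzyme A in mitochondria, was higher in G-MDSC, at 646 and 910.5 in the G-MDSC arrays against 206 and 317 in the neutrophil arrays. Its difference of 1.53 ± 0.37 (SE, 2 arrays per group, adjusted p by limma 0.0172) was 2.88-fold, and it passed under median and quantile scaling (2.08 and 1.58). Slc25a42, a coenzyme A carrier, read 112 and 186 against 152 and 395, and G-MDSC replicate 2 lay above neutrophils replicate 1. The pyrimidine nucleotide carriers Slc25a33 and Slc25a36 had differences of opposite sign, -0.88 ± 0.39 and 0.61 ± 0.38 (n = 2 per group, limma adjusted p = 0.159 and 0.317). Slc25a33 read 308 and 641 against 919 and 758, so its arrays separated, with G-MDSC replicate 1 the lowest. Slc25a36 read 2396 and 1505 against 1687 and 913 and overlapped.

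The remaining cofactor carriers did not pass the threshold. Slc25a26, which imports S-adenosylmethionine, read 105 and 13.6 against 131 and 169 and differed by -1.46 ± 0.80 (n = 2 per group), with G-MDSC replicate 2 below its array's 40th percentile. Slc25a32, a folate and FAD carrier, differed by 0.47 ± 0.40, the peroxisomal Slc25a17 by 0.35 ± 0.39 and Slc25a51, the NAD carrier, by 0.03 ± 0.31. The signals of Slc25a51 were 1326 and 1304 in the G-MDSC arrays against 1457 and 1133 in the neutrophil arrays, a range in which the groups were intermingled.

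Among the 4 carriers of iron and glutathione, Slc25a28 was called. Slc25a28 is mitoferrin 2, an importer of iron into the matrix, and its signal was 1445 and 1468 in the G-MDSC arrays against 769 and 485 in the neutrophil arrays. Its difference was 1.23 ± 0.34 (SE, 2 arrays per group, adjusted p by limma 0.029), and with quantile normalization it was 1.17 (adjusted p = 0.0666). Slc25a37, mitoferrin 1, which is known for its part in red cell precursors, read 2744 and 2031 in the G-MDSC arrays against 1917 and 1381 in the neutrophil arrays. Its arrays separated as well, with G-MDSC higher, and the difference of 0.53 ± 0.32 (SE, n = 2 per group) did not pass (limma adjusted p = 0.304), except without neutrophils replicate 1 (0.77, adjusted p = 0.0366). The difference between the mitoferrins was not tested. The glutathione carrier Slc25a39 read 4456 and 3761 against 4848 and 4173, with a difference of -0.14 ± 0.30 (SE, 2 arrays per group, adjusted p by limma 0.787). Its 4 kept probe sets ran from -0.14 to 0.14. Its paralog Slc25a40 read 209 and 159 against 117 and 179, with a difference of 0.30 ± 0.48 (n = 2 per group, limma adjusted p = 0.708).

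The 3 carriers that resemble uncoupling proteins all had positive differences, and 1 passed. Slc25a30, also known as KMCP1, was measured at 1495 and 1725 in the G-MDSC arrays against 578 and 577 in the neutrophil arrays. The 2 neutrophil values lay within 1 signal unit of each other, and the difference was 1.45 ± 0.31 (SE, 2 arrays per group, adjusted p by limma 0.00917). Its other kept probe sets gave smaller differences in the same direction, at 0.70 and 0.99, and in a fit to the median of its 3 kept probe sets within each array the call was lost (0.77, limma adjusted p = 0.144). Slc25a14, or UCP5, and Slc25a27, or UCP4, differed by 0.45 ± 0.44 and 0.83 ± 0.57 (n = 2 per group, limma adjusted p = 0.535 and 0.366). Slc25a14 read 256 and 243 against 237 and 133, and both G-MDSC arrays lay above both neutrophil arrays. Slc25a27 read 141 and 161 against 71.6 and 84.9, where the arrays separated too, while its other kept probe sets had negative differences of -0.43 and -0.98.

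Of the 5 tested members grouped as of unsettled substrate or of the outer membrane, Slc25a45 was called. It read 2309.5 and 2509 in the G-MDSC arrays against 923 and 836 in the neutrophil arrays, so that the groups stood well apart, and was higher by 1.44 ± 0.30 (SE, 2 arrays per group, adjusted p by limma 0.00822). Slc25a46, an outer membrane protein with a part in mitochondrial shape, read 1698 and 1555 against 1728 and 1126 and differed by 0.22 ± 0.33. Slc25a34, Slc25a47 and Slc25a53 differed by -0.33 ± 0.67, -0.14 ± 0.47 and -0.23 ± 0.37 (n = 2 per group). Without a test, Slc25a35 read 28.6 and 91.7 against 29.0 and 108 and Slc25a54 31.1 and 25.98 against 38.6 and 105.

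Agreement between probe sets set a limit on several genes. Of 19 members with more than 1 kept probe set, 9 had all of them on the same side of 0. Slc25a4, Slc25a24 and Slc25a30 were among these 9, and Slc25a12 was the called gene that was not. Slc25a11, Slc25a16, Slc25a28, Slc25a38 and Slc25a45 had 1 kept probe set each, so the kept probe sets gave no second measurement of them.

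**Figure D3:**
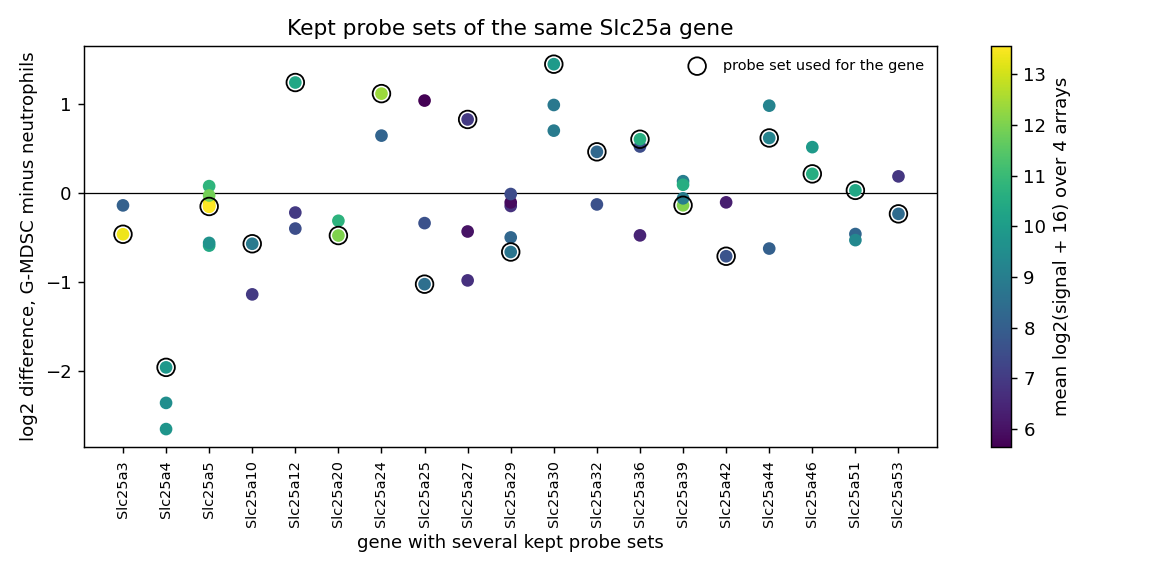
Log2 difference of every kept probe set of the 19 Slc25a genes that had more than 1, G-MDSC minus neutrophils. Colour gives the mean log2(signal + 16) over the 4 arrays and a ring marks the probe set used for the gene; the 3 kept probe sets of Slc25a4 lie from -2.65 to -1.96, and those of Slc25a12 from -0.40 to 1.24.

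**Figure D4:**
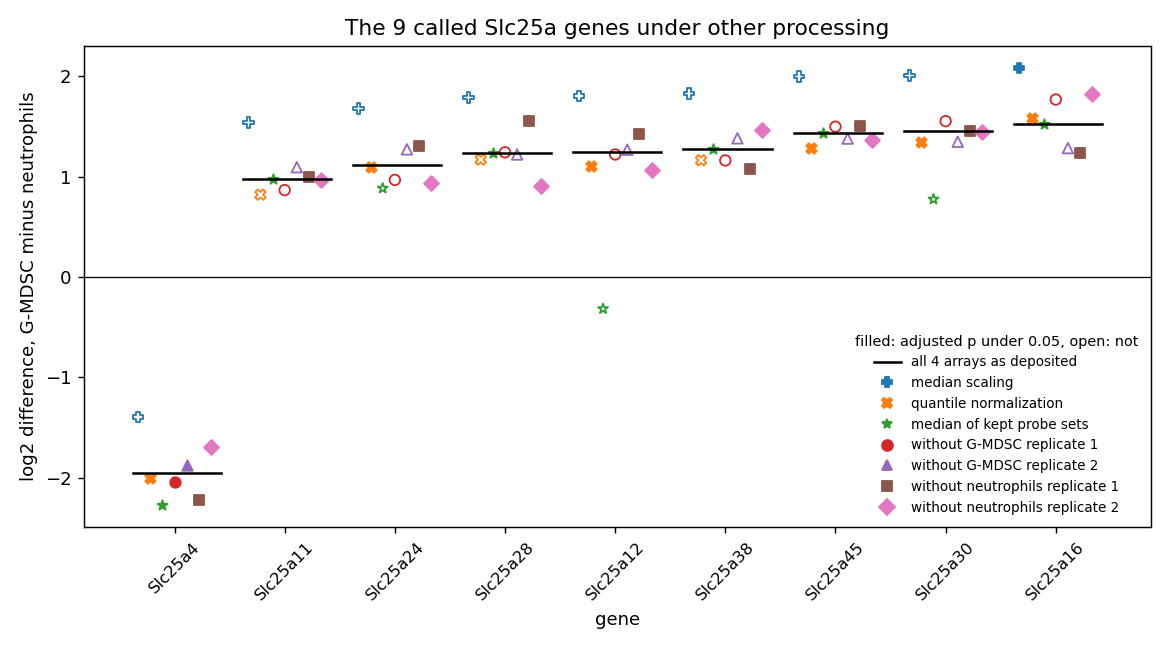
Log2 difference of the 9 called Slc25a genes with all arrays as deposited (black line) and under 7 other settings (symbols, named in the key). Filled symbols passed the threshold and open ones did not; without G-MDSC replicate 1 or 2 (circle, triangle) Slc25a4 alone passed, and the fit to the median of kept probe sets within each array put Slc25a12 at -0.32.

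Genes around the carriers were counted from lists grouped by function. Of 3 tested family members that go under other symbols, 0 were called by limma and 0 had an unadjusted p under 0.05. Mtch1 and Mtch2, outer membrane relatives of the carriers, differed by 0.29 ± 0.32 and -0.35 ± 0.32 (n = 2 per group), and the uncoupling protein Ucp3 by -0.05 ± 0.64. Ucp1 did not pass the filter, and Ucp2 was not analysed here.

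Of 14 tested genes of the machinery that imports carriers, 5 were lower in G-MDSC and 0 higher, where 8.05% and 8.3% of all genes were lower and higher, and the median difference was -0.97. Timm8a1 and Timm10, small chaperones of the space between the membranes, differed by -1.84 ± 0.34 and -1.28 ± 0.34, and Tomm40, the outer membrane channel, by -1.51 ± 0.35 (n = 2 per group, limma adjusted p = 0.00451, 0.0243 and 0.014). Tomm40 read 332 and 282 in the G-MDSC arrays against 735 and 1098 in the neutrophil arrays. The other lower genes were Timm13 (-1.04) and Tomm70a (-1.01), the receptor that carriers bind, both named after their values were seen. With median scaling 0 genes of the list passed, and without neutrophils replicate 2 there were 5 lower and 2 higher.

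For the 3 lists that follow, the shares of all genes tested were again 8.3% higher and 8.05% lower in G-MDSC. The median difference of all genes was -0.18. Of 17 other mitochondrial membrane transporters, 2 were higher and 1 lower, with a median of 0.13. Mpc1, a subunit of the pyruvate carrier, was higher by 1.43 ± 0.32 at 5967 and 8133 in the G-MDSC arrays against 2145 and 3087 in the neutrophil arrays (SE, 2 arrays per group, adjusted p by limma 0.0119). The sideroflexins Sfxn5 and Sfxn3 differed by 1.36 ± 0.34 and -1.58 ± 0.36. Of 18 enzymes on either side of the carriers, 2 were higher and 1 lower, with a median of 0.34. Got2, the mitochondrial aspartate aminotransferase of the malate-aspartate shuttle, was higher by 1.19 ± 0.30 at 6297 and 6943 in the G-MDSC arrays against 3150.4 and 2648 in the neutrophil arrays (SE, 2 arrays per group, adjusted p by limma 0.0186). Got1, Mdh1 and Mdh2 of the same shuttle, picked after the values were seen, differed by 0.59 ± 0.34, -0.06 ± 0.29 and -0.07 ± 0.30 and were not called. Cpt1a, which makes the acylcarnitines that Slc25a20 carries, was higher by 1.26 ± 0.31, and Mthfd2, of mitochondrial folate metabolism, was lower, at -1.26 ± 0.33. Of 21 general mitochondrial genes, 4 were lower and 0 higher, with a median of -0.16. Hspe1 and Hspd1, the matrix chaperonin, differed by -2.31 ± 0.36 and -1.73 ± 0.33, and Hspa9, the import motor chaperone, by -1.56 ± 0.32 (n = 2 per group). The other lower gene was Cycs (-1.46). Subunits of the respiratory chain and ATP synthase in the list were not called. They were Sdha (0.50), Ndufs1 (0.43), Cox4i1 (0.02), Atp5a1 (0.02) and Uqcrc1 (-0.21), and these and Cycs were picked after the values were seen. With median scaling 0 genes of these 3 lists were called.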

How the data were processed

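Gene expression was measured in 2 G-MDSC and 2 neutrophil samples with 1 array each. The deposited values are linear signal intensities, made by the authors with MAS5 in GCOS 1.4 per the submitters' processing notes, and their 2% trimmed mean is the same on the 4 arrays. Arrays have no read depth, so their number limits the precision. Probe sets were named by the platform annotation, and those with several symbols were left out. From the signals log2(signal + 16) was computed, 28754 of 45101 probe sets above the 40th percentile of their array in at least 2 arrays were kept, and 64 control probe sets were left out of the tests. The probe set with the highest mean stood for each of 13139 genes. Differences were fitted with limma 3.58.1 (R 4.3.3; lmFit, eBayes with an intensity trend, two-sided, Benjamini-Hochberg over all genes, threshold 0.05), and the code was tested on simulated data. With MAS5, dim signals vary widely.

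The Slc25a genes, their roles and all gene lists were chosen with earlier results of these data known. Called members, the brightest of each role and close paralogs are given in full. Up to 3 called genes per direction of each pathway list and 2 of each marker list are named. Further list genes were named after their values were seen. Alternatives were other pseudocounts, floors, filters, scalings, variance settings, probe-set rules, a block on the replicate number, and fits that left out each array in turn. Promoter sequences came from RefSeq (GRCm38.p6), searched with Python 3.11.15. In leave-one-out fits the lone array of a group was assumed to vary like the other group.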

Additional observations from a re-analysis of the deposited data

How the results depend on the processing

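With quantile normalization 5 members were higher, with median scaling 1, with a fit to the median of a gene's kept probe sets within each array 5, and without the intensity trend or without moderation 0. Lower members numbered 2 with signals raised to the 40th percentile, with the 60th percentile filter, with the median of kept probe sets and with quantile normalization and replicate block, and 0 with median scaling, without the trend and without moderation. The labels give only a replicate number, and with 2 pairs (correlation of same-numbered deviations 0.24) it was not taken as pairing: the replicate block gave 8 higher and 3 lower members, with Slc25a1 and Slc25a13 added (limma adjusted p = 0.019 and 0.0201), and 1699 and 1607 genes in all (12.9% and 12.2%), against 13.1% and 10.7% with quantile normalization added. Leaving out 1 array gave 0 to 10 higher and 1 to 8 lower members. The members' median was 0.59 with median scaling, which moves all genes from -0.18 to 0.38.

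Signs turned for uncalled genes and for Slc25a12. Median scaling gave 0.092 for Slc25a2, 0.10 for Slc25a3, 0.41 for Slc25a5, 0.083 for Slc25a20, 0.23 for Slc25a34, 0.42 for Slc25a39, 0.42 for Slc25a47 and 0.33 for Slc25a53. Quantile normalization, with or without the block, gave 0.036 for Slc25a2, 0.22 for Slc25a34, 0.12 for Slc25a47 and -0.12 for Slc25a51. The fit to per-array medians of kept probe sets gave -0.32 for Slc25a12, -0.98 for Slc25a27, 0.028 for Slc25a39 and -0.53 for Slc25a51. Signals raised to the 40th percentile gave -0.24 for Slc25a18 and -0.48 for Slc25a48. Leaving out 1 array gave ranges of -1.01 to 0.081 for Slc25a2, -0.51 to 0.21 for Slc25a5, -0.0076 to 0.70 for Slc25a17, -0.40 to 0.48 for Slc25a18, -0.98 to 0.029 for Slc25a20 and -0.62 to 0.69 for Slc25a22. The ranges were -0.92 to 0.27 for Slc25a34, -0.088 to 0.52 for Slc25a46, -0.65 to 0.37 for Slc25a47, -0.34 to 1.24 for Slc25a48 and -0.15 to 0.21 for Slc25a51. Of the members' other values under an alternative, 554 kept direction and side of the threshold, 48 no longer passed and 19 newly passed.

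With median scaling 0 genes of the import list were lower, 0 of the other transporters and of the enzymes were called in either direction, 0 general mitochondrial genes were lower, and of the T and NK cell list 2 were higher and 0 lower. Without neutrophils replicate 2, 2 genes of the import list were higher, 2 enzymes lower and 2 erythroid markers higher. The causes of these changes were not tested. With 2 arrays per group, differences of dim genes have wide errors.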
